A study of Rattus norvegicus with 4 samples.

Results

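Subunits of the respiratory chain and of ATP synthase were examined in NR8383, an established macrophage line that was obtained by lung lavage of a normal rat. All 4 arrays measured 1 group, cultures given titanium dioxide particles called NM105 (p25, anatase/rutile) at 3 cm2 of particle surface per cm2 of culture for 4 h, after 20 passages of the line. No value below is a response to the particles, as cultures without them were not analysed here. Total RNA of each of the 4 cultures, which the series calls biological replicates, was labelled with Cy3 and hybridised to 1 Agilent array, and all arrays lay on 1 slide. Genes were chosen by symbol alone: those of complex I (Ndufa, Ndufb, Ndufc, Ndufs and Ndufv), Sdha to Sdhd of complex II, Cyc1 and the Uqcr genes of complex III, Cox4 to Cox8 of complex IV and the Atp5 genes of ATP synthase, which is also called complex V. This gave 81 measured genes among 16581 named ones, 35 in complex I, 4 in complex II, 9 in complex III, 17 in complex IV and 16 in complex V, read by 109 probes. Of the 81, 80 are protein-coding in the reference table and 1, Cox6c-ps1, is a transcribed pseudogene. For 38 of the 81 the reference table names at least 1 pseudogene, whose RNA the probes may also read. A further 31 protein-coding genes whose symbols fit the choice were not analysed here, among them Atp5mc3, Cox7a1 and Ndufs6.

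The respiratory chain sits in the inner mitochondrial membrane. Complexes I and II take electrons from NADH and succinate, complex III passes them from ubiquinol to cytochrome c, and complex IV hands them to oxygen, while complexes I, III and IV pump protons out of the matrix. ATP synthase lets the protons back through a rotating ring and makes ATP with its catalytic head. Most subunits are encoded in the nucleus, a few core ones in mitochondrial DNA, and macrophages shift between this pathway and glycolysis as they are activated. The subunits encoded in mitochondrial DNA were not analysed here.

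A level below is the log2 signal of the gene's brightest probe minus the array's own reference, the 75th percentile of signal over all probes detected on all 4 arrays. It serves to set a gene on 1 array against itself on another. No gene is ranked above a different gene, because probes differ in brightness. A gene was detected on an array when Agilent's software called any of its probes well above background. For replicates 1 to 4 in turn, this reference stood at 1431, 585, 767 and 831 intensity units, and 10809 to 14407 of 45598 probes were detected per array. Replicate 1 was thus the array with the strongest signal and replicate 2 the weakest. Of 10 macrophage markers 7 were detected on all 4 arrays, among them Cd68, Csf1r and Pparg, while Adgre1 and Marco were detected on none. None of 5 epithelial, 4 fibroblast, 3 T cell and 3 neutrophil markers was detected on all 4 arrays, and 1 of 3 endothelial markers was, Cdh5.

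The 250 bases before the start site of 8 subunit genes are shown first, as they stand in RefSeq's GRCr8 assembly. They are examples with and without motif matches. Ndufa6, Sdhb, Uqcrc2 and Cox8a were detected on all arrays and hold matches to motifs of factors known for respiratory genes. Cox8b and Cox8c are the relatives of Cox8a known from muscle and testis. No match lies in the Cox8b and Ndufab1 stretches. Atp5pf and Ndufab1 lay over 2-fold lower on replicate 1 than on each other array. Capitals mark the letters GCATGCGC of NRF1, CCGGAAG of ETS factors such as GABPA, and AAGATGGCG of YY1, on either strand. Each sequence reads 5′ to 3′ on the gene's strand and ends at the base before the start.
Ndufa6 (GRCr8 chr7:115750318-115750567, minus strand): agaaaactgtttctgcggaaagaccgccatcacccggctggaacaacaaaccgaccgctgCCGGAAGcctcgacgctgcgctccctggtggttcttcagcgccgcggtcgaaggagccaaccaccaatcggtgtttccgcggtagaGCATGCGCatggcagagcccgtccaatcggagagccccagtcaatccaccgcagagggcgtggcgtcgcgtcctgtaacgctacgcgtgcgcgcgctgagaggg
Ndufab1 (GRCr8 chr1:186089337-186089586, minus strand): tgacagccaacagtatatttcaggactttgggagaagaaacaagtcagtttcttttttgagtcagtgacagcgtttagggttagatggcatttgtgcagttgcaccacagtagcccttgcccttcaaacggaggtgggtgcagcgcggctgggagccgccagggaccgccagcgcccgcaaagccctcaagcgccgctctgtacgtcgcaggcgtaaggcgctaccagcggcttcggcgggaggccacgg
Sdhb (GRCr8 chr5:158547684-158547933, plus strand): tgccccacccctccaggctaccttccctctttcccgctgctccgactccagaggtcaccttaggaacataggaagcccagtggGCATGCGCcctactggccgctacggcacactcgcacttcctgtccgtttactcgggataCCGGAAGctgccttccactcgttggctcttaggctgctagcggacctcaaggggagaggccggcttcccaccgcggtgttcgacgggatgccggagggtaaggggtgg
Uqcrc2 (GRCr8 chr1:184598990-184599239, plus strand): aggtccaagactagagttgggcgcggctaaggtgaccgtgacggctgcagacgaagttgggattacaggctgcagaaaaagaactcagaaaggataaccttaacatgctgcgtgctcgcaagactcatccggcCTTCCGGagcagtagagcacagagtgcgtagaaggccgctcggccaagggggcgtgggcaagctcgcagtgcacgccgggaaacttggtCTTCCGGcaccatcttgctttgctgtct
Cox8a (GRCr8 chr1:213833624-213833873, minus strand): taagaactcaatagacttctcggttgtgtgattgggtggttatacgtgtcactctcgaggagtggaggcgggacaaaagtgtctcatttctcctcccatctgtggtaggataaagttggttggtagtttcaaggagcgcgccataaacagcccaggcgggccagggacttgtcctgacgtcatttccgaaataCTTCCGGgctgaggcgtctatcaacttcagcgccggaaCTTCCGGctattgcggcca
Cox8b (GRCr8 chr1:205408274-205408523, minus strand): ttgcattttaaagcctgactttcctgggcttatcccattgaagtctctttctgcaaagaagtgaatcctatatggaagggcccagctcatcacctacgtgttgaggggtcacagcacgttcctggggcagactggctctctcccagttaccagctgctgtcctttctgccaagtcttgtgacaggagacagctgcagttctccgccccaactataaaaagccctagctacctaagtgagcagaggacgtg
Cox8c (GRCr8 chr6:127793129-127793378, plus strand): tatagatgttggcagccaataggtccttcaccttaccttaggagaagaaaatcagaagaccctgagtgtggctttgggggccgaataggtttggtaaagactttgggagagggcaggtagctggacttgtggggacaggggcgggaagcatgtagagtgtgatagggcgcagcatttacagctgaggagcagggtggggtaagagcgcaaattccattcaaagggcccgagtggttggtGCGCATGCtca
Atp5pf (GRCr8 chr11:37375102-37375351, minus strand): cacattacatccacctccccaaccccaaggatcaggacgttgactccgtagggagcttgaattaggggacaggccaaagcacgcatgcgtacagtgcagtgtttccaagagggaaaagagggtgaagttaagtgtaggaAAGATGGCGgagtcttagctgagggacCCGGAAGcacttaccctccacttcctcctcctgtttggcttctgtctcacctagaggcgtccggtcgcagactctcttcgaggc

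Motifs were counted in windows from 250 bases before to 50 after the start, which RefSeq gave for 70 of the 81 genes. The ETS motif CCGGAAG was in 21 of 70 windows (30.0%), against 21.8% of 4926 windows of genes detected on all arrays and 9.2% of 27457 windows of all genes. The NRF1 motif GCATGCGC was in 9 (12.9%), against 5.5% and 2.7%. It overlaps its own reverse complement, so a site can match on both strands. The YY1 motif AAGATGGCG was in 9 (12.9%), against 4.3% and 1.9%. At least 1 of these 3 was present in 31 windows (44.3%), against 28.8% and 12.8%, and 7 windows (10.0%) held more than 1 of them, against 2.7% and 1.0%. The SP1 motif GGGCGGGG went the other way: it was in 7 windows (10.0%), against 31.2% and 16.3%. Median GC content was 56.7% in the subunit windows, 60.7% over detected genes and 52.3% over all windows. The remaining motifs were rarer. The cyclic AMP response element TGACGTCA was in 5.7% of subunit windows, against 3.2% of detected genes. The E-box CACGTG was in 7.1% against 10.5%, the CCAAT box GATTGGCT in 4.3% against 5.6%, and the oestrogen-related receptor motif TCAAGGTCA in 1.4% against 0.2%, which is 1 gene, Sdhd. By complex, the NRF1 motif was in 4 of 15 windows of ATP synthase and 2 of 32 of complex I, and the YY1 motif in 6 of 32 of complex I and in none of 13 of complex IV. A match describes letters in a window and is no evidence that the factor binds there.

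**Figure D1:**
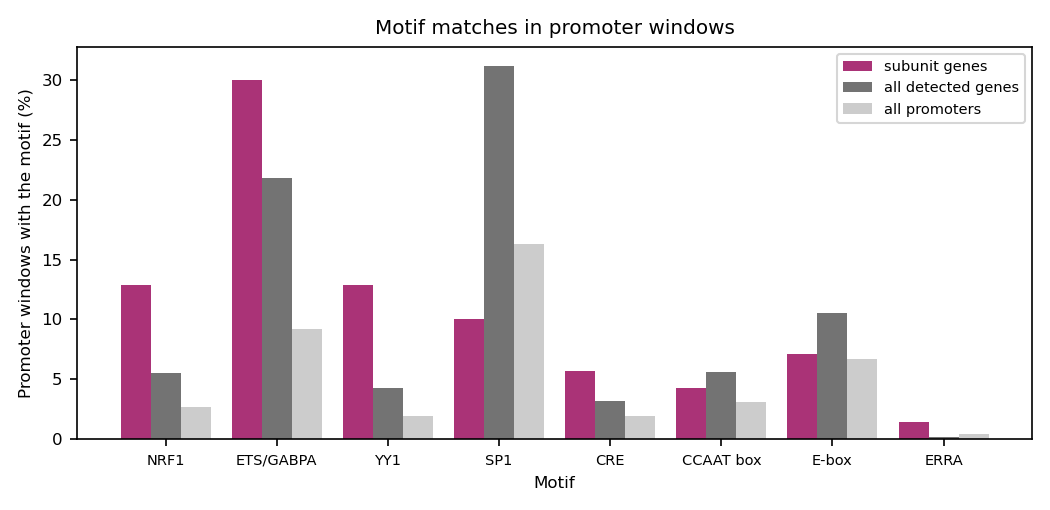
Share of promoter windows (vertical axis, percent) that hold each motif on either strand (horizontal axis), for 70 subunit genes, 4926 genes detected on all arrays and all 27457 windows. The ETS, NRF1 and YY1 bars of the subunit genes are the higher ones (30.0%, 12.9% and 12.9%), and their SP1 bar (10.0%) is the lower one.

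Most of the measured subunits gave signal in these macrophages. Detection held on all 4 arrays for 75 of the 81 genes (92.6%), against 35.2% of all named genes. RNA of fewer cells of a kind and less RNA per cell cannot be told apart in such bulk samples. The count was 32 of 35 in complex I, 4 of 4 in complex II, 9 of 9 in complex III, 14 of 17 in complex IV and 16 of 16 in complex V. Of 109 probes, 98 were detected on all arrays. The 6 genes that were not detected on all arrays were Ndufs4, Ndufa10, Ndufa4l2, Cox7c, Cox8c and Cox6c-ps1. With another rule, signal over the 99th percentile of negative control spots (5.07 to 5.96 intensity units), 76 genes passed, Cox6c-ps1 being the added one.

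These 6 fall into different kinds. Ndufs4, an accessory subunit of complex I whose loss causes mitochondrial disease, was at 3.03, 3.13, 3.22 and 3.51 intensity units on replicates 1 to 4, at the level of the negative controls, whose medians ran from 3.51 to 3.82. Ndufa10, an accessory subunit of the membrane arm, was at 4.22, 3.07, 3.14 and 3.54, also near the controls. Its relative Ndufa10l1 was detected on all 4 arrays with both of its probes, at 3214, 1262, 1797 and 2024. RNA of such related copies cannot be told apart with certainty by these probes. Cox7c, a small subunit of complex IV, was at 13.6, 3.20, 9.89 and 16.8: it exceeded the controls' 99th percentile on replicates 1, 3 and 4 and lay below it on replicate 2, and no array called it detected. Each of these 3 genes was read by a single probe, so a low value is that of a probe and may not be that of the gene. Ndufa4l2, a relative of Ndufa4 induced by low oxygen in other cells, was at 3.24, 3.46, 3.51 and 3.78 at its brighter probe, and its other probe was not detected either. The testis isoform Cox8c was at 3.24, 3.41, 3.42 and 3.62, as low on all arrays. Cox6c-ps1 was at 18.2, 15.2, 28.1 and 27.2 and was called on replicates 3 and 4, and its parent Cox6c, which these probes may also read, was detected on all arrays.

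Complex I is the largest of the 5 and takes electrons from NADH. All 7 of its core subunits that are encoded in the nucleus were detected on all arrays. Ndufv1, which binds NADH and the first cofactor, FMN, was at 2.75, 2.97, 2.87 and 2.83 on replicates 1 to 4 (SD 0.091). Its partner Ndufv2, an iron-sulphur protein, was at 1.35, 1.41, 1.64 and 1.58 (SD 0.14). Both lay lowest on replicate 1, and their arrays spanned 0.22 and 0.29. Ndufs1, the largest iron-sulphur subunit, was at -1.38, -1.66, -1.81 and -1.62 (SD 0.18), highest on replicate 1 instead. In the arm that meets ubiquinone, Ndufs3 was at 1.28, 1.22, 1.23 and 1.38 (SD 0.075) and Ndufs8, an iron-sulphur subunit, at 0.064, 0.49, 0.38 and 0.48 (SD 0.20). Ndufs8 was lowest on replicate 1 and Ndufs3 on replicate 2. Ndufs7, which carries the last iron-sulphur cluster before ubiquinone, was at 1.43, 2.18, 1.80 and 1.73 (SD 0.31), lowest on replicate 1 and highest on replicate 2.

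The accessory subunits of complex I surround this core, and 25 of 28 were detected on all arrays. Their median SD was 0.15, against 0.18 for the 7 core subunits and 0.23 for all detected genes. Ndufa9, an accessory subunit of the ubiquinone arm, was at 1.25, 1.16, 1.19 and 1.24 (SD 0.044) and Ndufs5 of the membrane arm at 2.19, 2.14, 2.25 and 2.24 (SD 0.052). The arrays spanned 0.094 and 0.11 for these genes. Ndufb8, in the outer membrane arm, was at 4.84, 4.82, 4.92 and 4.75 (SD 0.070), with intensities of 40872, 16498, 23236 and 22370.3 units. Ndufa13, also known as GRIM-19, was at 3.87, 4.18, 3.90 and 3.84 (SD 0.16), and its other probe was highest on replicate 2 as well. Ndufa4, which carries a complex I name but is known as a subunit of complex IV, was at 1.57, 1.11, 1.61 and 2.03 (SD 0.37), lowest on replicate 2 and highest on replicate 4. Ndufa5 was at 1.99, 1.97, 2.42 and 2.82 (SD 0.40), with replicates 1 and 2 together and replicate 4 highest. Ndufab1, the mitochondrial acyl carrier protein that also sits in complex I, was at -0.16, 1.24, 1.40 and 1.35 (SD 0.75), with replicate 1 apart from the other 3 arrays. The remaining detected accessory subunits had SDs from 0.066 (Ndufb11) to 0.39 (Ndufa11).

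Complex II, succinate dehydrogenase, belongs both to the respiratory chain and to the citric acid cycle, and all 4 of its genes were detected on all arrays. Sdha, the flavoprotein that oxidises succinate, was at -0.27, -0.51, -0.32 and -0.21 (SD 0.13). Sdhb, the iron-sulphur subunit, was at 1.07, 1.29, 1.504 and 1.25 (SD 0.18). Sdha was lowest on replicate 2 and Sdhb on replicate 1. The membrane anchors were Sdhc at -0.58, 0.072, 0.24 and 0.075 (SD 0.36) and Sdhd at 0.75, 0.42, 0.66 and 0.67 (SD 0.14). Sdhc was lowest on replicate 1, apart from the other 3 arrays, with a span of 0.83, while Sdhd was highest there, so the 4 genes of this complex did not share an order of arrays.

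Complex III holds few subunits and all 9 measured genes were detected on all arrays. Cyc1, cytochrome c1, was at 3.80, 3.72, 3.59 and 3.55 (SD 0.12) at its brightest probe and had an SD of 0.027 at its other probe. Uqcrfs1, the Rieske iron-sulphur protein that takes electrons from ubiquinol, was at 1.75, 1.78, 1.81 and 1.93 (SD 0.078). Their arrays spanned 0.26 and 0.18. The large core proteins Uqcrc1 and Uqcrc2 were at 1.49, 1.74, 1.41 and 1.49 (SD 0.14) and -0.90, -1.26, -0.99 and -1.06 (SD 0.15), with Uqcrc1 highest and Uqcrc2 lowest on replicate 2. Uqcrq was at 3.84, 3.90, 3.96 and 3.93 with an SD of 0.052, which was 0.12 with the 75th percentile over all probes and 0.022 after normexp correction. Uqcrh, the hinge protein that contacts cytochrome c1, was at 1.03, 1.05, 1.11 and 1.42 (SD 0.18), highest on replicate 4. Uqcrb, a small subunit near the ubiquinone site, was at -0.62, 0.85, 1.09 and 1.07, and its SD of 0.82 was the largest of all 75 detected subunits, but 0.14 without replicate 1. Replicate 1 alone lay apart, 3.27-fold below the highest array.

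Complex IV, cytochrome c oxidase, has isoforms known from particular tissues, and several of those gave signal here. Cox4i1, the common form of subunit 4, was at 4.91, 5.23, 5.19 and 5.12 (SD 0.14). Cox4i2, the form known from lung and from low oxygen, was detected on all arrays at -3.09, -2.78, -2.78 and -3.11 (SD 0.18), with intensities of 168, 85.2, 112 and 96.3 units. The arrays spanned 0.32 for the former and 0.33 for the latter. Cox6a1, the common form of subunit 6a, was at 5.49, 5.90, 5.74 and 5.87 (SD 0.19). Cox6a2, the form known from heart and skeletal muscle, was also detected on all arrays with both probes. Its brighter probe was at 0.20, 0.62, 0.20 and 0.15 (SD 0.22), with intensities of 1642, 901, 878 and 921 units, and both probes were highest on replicate 2. Cox6b1, the common form of subunit 6b, was at -3.43, -3.52, -3.16 and -3.16 (SD 0.19), and the testis form Cox6b2 at -0.73, 0.20, 0.26 and -0.51 (SD 0.50). Cox6b1 was dim, with intensities of 133, 50.9, 86.1 and 92.8 units. Each of these forms was read by a single probe, so their levels do not show which form had more RNA. For Cox6b2 replicates 2 and 3 lay together above replicates 1 and 4, with a span of 0.99. Of 5 markers of cardiac and skeletal muscle, Actc1 and Tnnt2 were detected on all 4 arrays, and Myh6, Myh7 and Ckm on none.

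For subunit 8, the common form Cox8a was at 4.14, 4.60, 4.26 and 4.40 (SD 0.20), the muscle form Cox8b was dim but called on every array, and the testis form Cox8c was not detected. Cox8b gave 19.1, 20.2, 23.4 and 28.4 intensity units, a few times the 99th percentile of the negative controls, which was 5.62, 5.48, 5.07 and 5.96 on replicates 1 to 4. For subunit 7a, Cox7a2, the form found in most tissues, was at 2.81, 2.99, 3.10 and 3.28 (SD 0.20) and Cox7a2l, which joins complex III to complex IV, at 2.32, 2.68, 2.90 and 2.66 (SD 0.24). Both were lowest on replicate 1. Cox5a and Cox5b, subunits found in all tissues, were at 3.12, 3.39, 3.22 and 3.28 (SD 0.11) and 3.83, 4.39, 4.29 and 4.19 (SD 0.24), again lowest on replicate 1. The small subunit Cox6c was at 2.56, 2.20, 2.55 and 2.98 (SD 0.32) and Cox7b at 0.025, -0.71, -0.23 and 0.41 (SD 0.47). These last genes were lowest on replicate 2 and highest on replicate 4, 2.17-fold apart for Cox7b.

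All 16 measured genes of ATP synthase were detected on all arrays. In the catalytic head, the alpha subunit Atp5f1a was at 4.92, 4.64, 4.65 and 4.84 (SD 0.14) and the beta subunit Atp5f1b, which holds the catalytic sites, at 1.77, 1.68, 1.73 and 2.00 (SD 0.14). Both were lowest on replicate 2, and their arrays spanned 0.28 and 0.33. In the central stalk, Atp5f1c, the gamma subunit, was at 0.88, 0.86, 0.87 and 0.65 (SD 0.11). The delta subunit Atp5f1d was at 2.98, 3.66, 3.36 and 3.23 (SD 0.28) and the epsilon subunit Atp5f1e at 4.18, 4.57, 4.70 and 4.56 (SD 0.23). Gamma was lowest on replicate 4, delta and epsilon on replicate 1. The rotating ring is made of c subunits: Atp5mc1 was at 4.68, 5.32, 5.23 and 5.22 (SD 0.29) and Atp5mc2 at 4.90, 5.50, 5.20 and 5.11 (SD 0.25), both lowest on replicate 1 and highest on replicate 2. A further probe of Atp5mc2 was at 4.514, 4.718, 4.573 and 4.512 (SD 0.097), lowest on replicate 4. Its remaining probes were lowest on replicate 1. Atp5if1, the inhibitor that blocks the enzyme from burning ATP, was at 2.23, 2.31, 2.55 and 2.61 (SD 0.19).

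The other subunits of ATP synthase form the peripheral stalk and the membrane part. In the peripheral stalk, Atp5pd, the d subunit, was at 3.68, 3.76, 3.77 and 3.73, with an SD of 0.038, the smallest of all 75 detected subunits on this scale only. It was 0.11 with the 75th percentile over all probes and after quantile normalization, where Ndufa1 and Ndufb2 had the smallest SD, and its other probe had one of 0.14. Atp5po, which ties the stalk to the head, was at 3.51, 3.76, 3.56 and 3.67 (SD 0.11), and the b subunit Atp5pb at 0.18, -0.51, -0.12 and 0.080 (SD 0.31). Atp5pb was highest on replicate 1 and lowest on replicate 2. Atp5pf, coupling factor 6 of the same stalk, was at -1.01, 0.27, 0.48 and 0.68 (SD 0.76), 3.23-fold apart between replicates 1 and 4. Among the small membrane subunits that help the enzyme form dimers, Atp5me was at 4.18, 4.50, 4.32 and 4.44 (SD 0.14) and Atp5mg at 3.73, 4.10, 4.26 and 4.43 (SD 0.30). Atp5mf was at 0.67, 0.76, 0.93 and 1.42 (SD 0.33) and Atp5mk at 1.53, 1.94, 2.02 and 2.45 (SD 0.38). Atp5mf, Atp5mg and Atp5mk were each lowest on replicate 1 and highest on replicate 4.

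**Figure D2:**
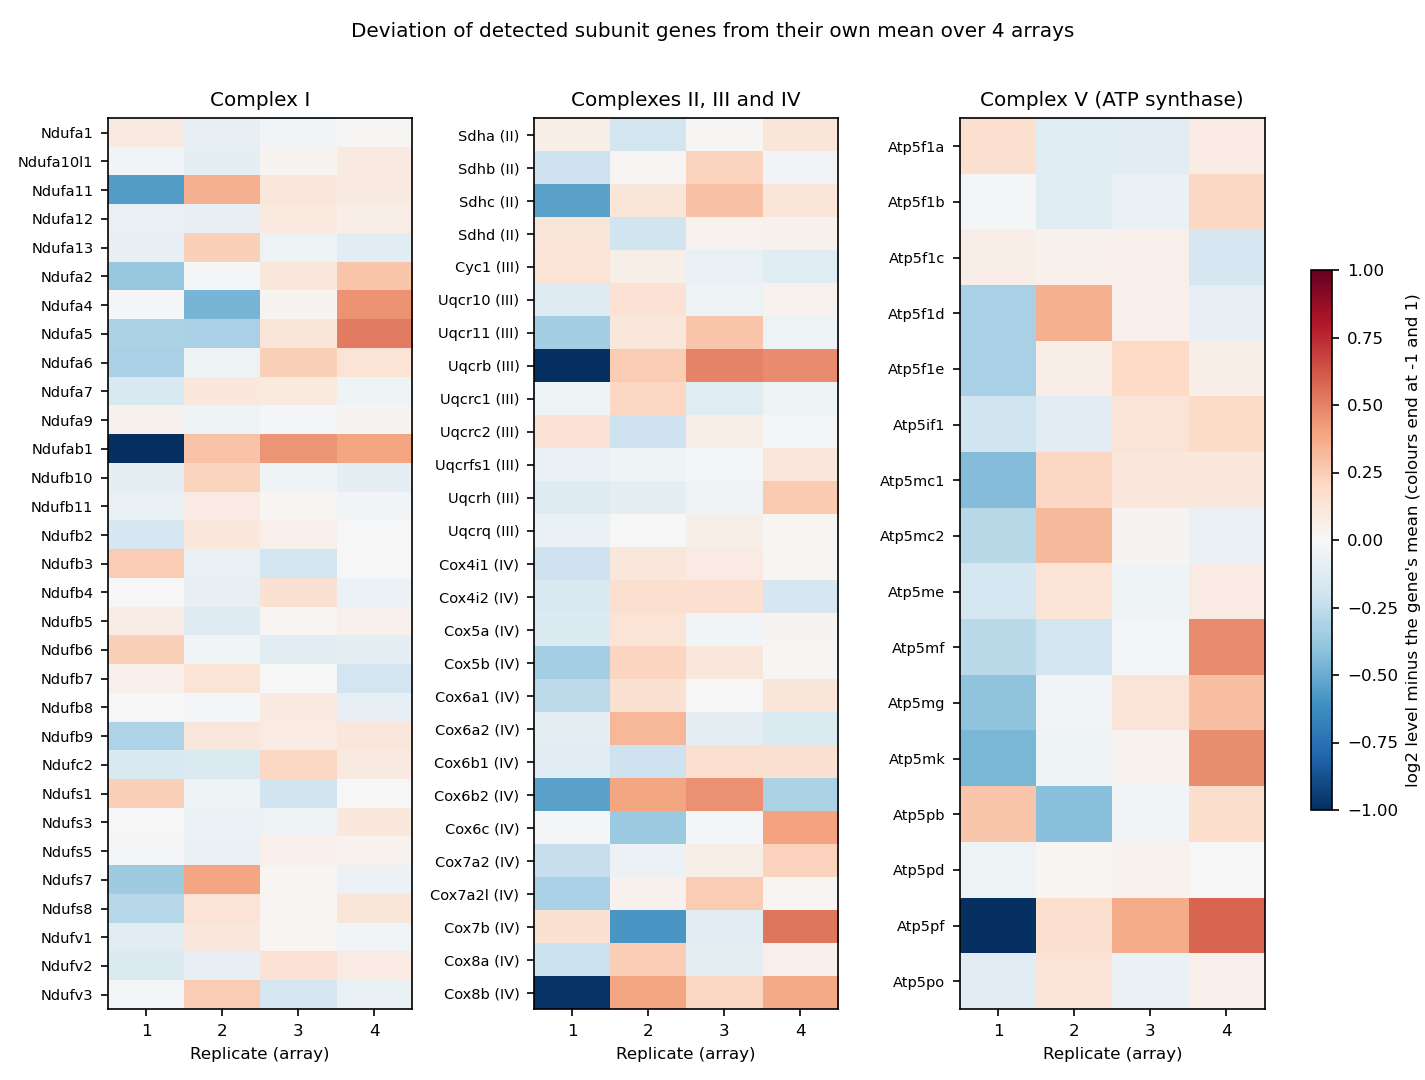
Deviation of detected subunit genes (rows) from their own mean on each of the 4 arrays (columns), in log2 units, with red above and blue below the gene's mean, without the gene not reported here. On this scale the replicate 1 column holds most of the blue, deepest for Uqcrb, Ndufab1, Atp5pf and Cox8b, while Atp5pd and Ndufa9 are pale throughout.

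The arrays stand for 4 cultures, but differences between them also hold extraction, labelling and hybridisation. The median SD of the 75 subunits was 0.18 (25th and 75th percentiles 0.12 and 0.28), against 0.23 (0.16 and 0.32) over 5824 named genes with levels, and 49 of the 75 lay below the median of all genes. By complex the median SD was 0.15 in complex I, 0.16 in complex II, 0.14 in complex III, 0.21 in complex IV and 0.24 in complex V. Genes were sorted by mean signal into 10 equal bins. Brighter bins had smaller SDs over all genes, and 43 of the 75 subunits lay in the brightest bin. In that bin the median SD was 0.15 for subunits and 0.17 for all 583 genes. In the next bin it was 0.18 for both the 17 subunits and the 582 genes, and in the bin after it 0.34 for 10 subunits against 0.19. After normexp correction the medians over all 75 subunits and all genes were 0.17 and 0.18, and with the 75th percentile over all probes 0.22 and 0.23. The part of signal strength in the smaller spread of the subunits was not tested.

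**Figure D3:**
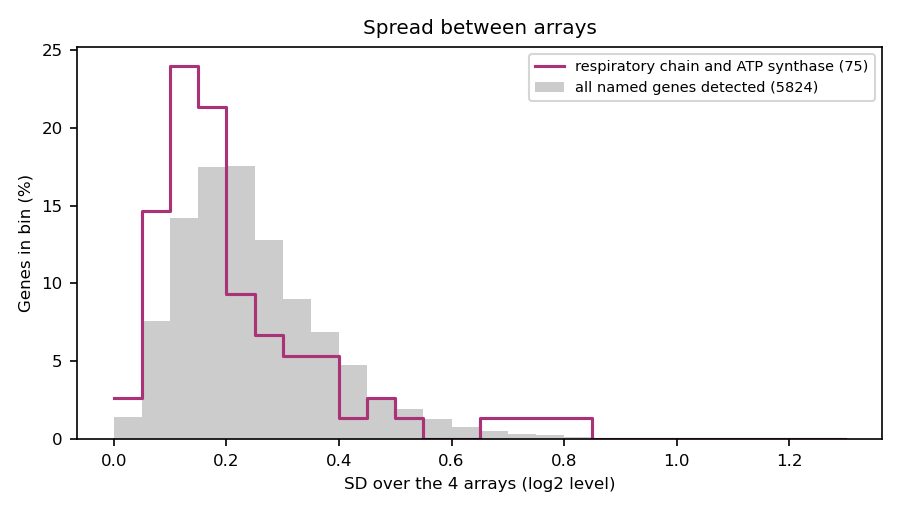
Distribution of the SD over the 4 arrays (horizontal axis, log2 units) for 75 subunit genes (line) and 5824 named genes (bars), each as a percent of its group. The line peaks to the left of the bars, with medians of 0.18 and 0.23, and 4 subunits lie beyond 0.65.

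Of the 75 subunits, 6 had a highest and a lowest array at least 2-fold apart, against 8.96% of all named genes with levels. Under other scalings and normexp correction it was 7 or 9 of 75, at 9.33% or 12.0%, and above the share of all genes, which was 4.84% to 8.83%. Among them were Uqcrb, Atp5pf, Ndufab1, Cox8b and Cox7b. With a minimum of 1.5-fold the count was 22 of 75, against 38.8%. For Uqcrb, Atp5pf, Ndufab1 and Cox8b, chosen here after their values were seen, replicate 1 lay at least 2-fold below each other array, a pattern that 0.876% of all genes showed. Before scaling, Ndufab1 gave 1281, 1382, 2018 and 2123 intensity units on replicates 1 to 4, Atp5pf 711, 704, 1069 and 1335 and Uqcrb 933, 1056, 1638 and 1748. Replicates 1 and 2 were thus close in unscaled signal for these genes, although the reference was 1431 on replicate 1 and 585 on replicate 2. The 4 genes remained over 2-fold apart under all 4 other scalings or corrections, at 2.59 to 4.58-fold. Without replicate 1 the count of 6 became 1, Cox7b.

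Few of these genes could be read by a further probe. Of the 4, Ndufab1 and Uqcrb each had another probe that was not detected, and Atp5pf and Cox8b had none. Cox5a had 2 detected probes that disagreed: 1 was at 1.73, 3.35, 3.41 and 3.37 on replicates 1 to 4, over 2-fold lower on replicate 1, and the other at 3.12, 3.39, 3.22 and 3.28. Over all named genes, 63 had a detected probe at least 2-fold lower on replicate 1 than on each other array. In 18 of them another probe was detected, and in 0 of the 18 were all probes low in that way. For Atp5mk, in contrast, all 4 probes were lowest on replicate 1 and highest on replicate 4, with SDs from 0.36 to 0.40. Of the 18 subunits with several detected probes, 12 had the same lowest array at all their probes and 8 the same highest array. Uqcr11 had the widest gap in mean level between its probes, 4.31, and Ndufv3 one of 2.15, each with probes made for different transcripts. Atp5f1e and Atp5mc2 had gaps of 2.51 and 2.19 between probes made for the same transcript.

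**Figure D4:**
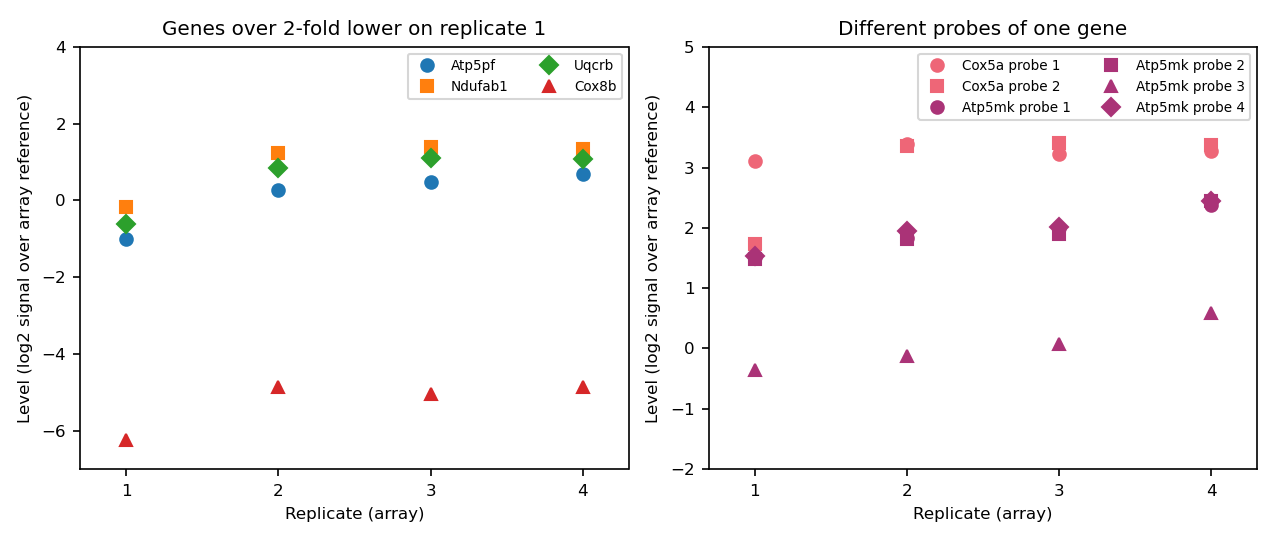
Level on each array (horizontal axis, replicate; vertical axis, log2 signal over the array reference) of the 4 subunit genes that were over 2-fold lower on replicate 1 (left) and of the separate probes of Cox5a and Atp5mk (right). One Cox5a probe drops to 1.73 on replicate 1 while the other stays at 3.12, and the 4 Atp5mk probes keep the same order of arrays.

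On this scale, though not after quantile normalization, subunits as a whole lay lower on replicate 1. The median deviation from the gene's own mean was -0.13, 0.021, 0.035 and 0.048 for replicates 1 to 4 in turn, against 0.057, -0.013, -0.0055 and -0.014 over all genes. On replicate 1 it was -0.078 in complex I, -0.076 in complex II, -0.070 in complex III, -0.21 in complex IV and -0.24 in complex V. Replicate 1 was the lowest array for 44 of the 75 subunits (58.7%), against 25.0% of all genes, and for 12 of 16 in complex V and 9 of 14 in complex IV. This moved with signal strength: replicate 1 was lowest for 30 of 43 subunits (69.8%) and 51.6% of all genes in the brightest bin, and for 8 of 17 subunits (47.1%) and 30.8% of genes in the next. After quantile normalization, which makes the signal distributions of the arrays equal, the count was 26 of 75, against 27.04% of all genes, and the median deviation on replicate 1 was 0.011. After normexp correction it was 41 of 75, against 46.9% of all genes. With the 75th percentile over all probes it was 57 of 75, against 36.9%, and with the median of detected probes 58 of 75, against 34.5%. The median deviation of all genes on replicate 1 was negative too under these settings. It was -0.081 after normexp correction, -0.044 with the 75th percentile over all probes and -0.022 with the median of detected probes. The part of scaling and signal strength in this result was not tested.

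**Figure D5:**
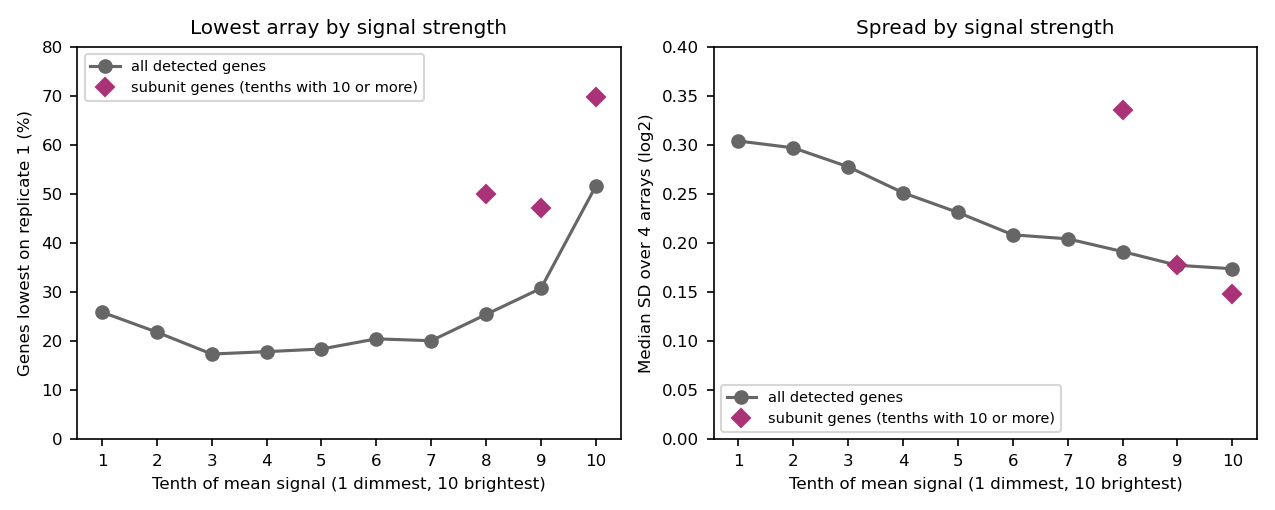
Percent of genes whose lowest array was replicate 1 (left) and median SD over 4 arrays (right) by bin of mean signal (horizontal axis, 10 bins, 1 dimmest), for all 5824 genes (circles) and for subunit genes where a bin held 10 or more (diamonds). The share of all genes is 51.6% in the brightest bin, where 43 of the 75 subunits lie, and their median SD is smaller in brighter bins.

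A test between arrays was possible for 2 subunit probes, those printed at several spots. The limma moderated F test over 1594 such probes set arrays against the error between spots, so it concerns arrays and not cultures or particles, and 85.2% of all probes passed at an adjusted p under 0.05. A probe of the ring subunit Atp5mc2 at 10 spots differed between arrays (limma adjusted p = 5.07e-13), with 0.46 between its highest and lowest array. The probe of Atp5mf at 2 spots did too (limma adjusted p = 0.00656), with 0.75 between them. Neither reached 2-fold, and without replicate 2, or without replicate 4, 1 of the 2 passed. With 85.2% of all probes called, 2 of 2 is near the background.

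Other genes that serve the chain were read beside the subunits. Of 41 measured assembly factors, every array detected 30, no array detected 6 and the other 5 varied, with a median SD of 0.17. Surf1, which helps build complex IV, was at -0.50, -0.82, -0.99 and -0.86 (SD 0.21) and the copper chaperone Cox17 at 2.50, 2.63, 2.20 and 2.23 (SD 0.21). Sdhaf2, which inserts FAD into Sdha, was at -1.80, -3.09, -2.93 and -2.58, over 2-fold higher on replicate 1 than on replicate 2, the opposite of the subunits that were low there. On this scale the median deviation of these factors on replicate 1 was 0.032, against -0.13 for the subunits. Over all genes it was 0.10 in the dimmest bin of signal and -0.11 in the brightest, which held 43 subunits. After quantile normalization the subunits were at 0.011. The part of signal strength and scaling in this difference was not tested. Of 19 electron carrier and coenzyme Q genes, 17 were detected on all arrays. Cycs, cytochrome c, was at -0.70, -1.97, -1.43 and -1.0 (SD 0.55), highest on replicate 1, and Gpd2, which feeds electrons from glycerol phosphate to ubiquinone, at -2.71, -2.69, -2.69 and -2.67, with an SD of 0.015. Cyct, the testis form of cytochrome c, was detected on no array.

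Of 23 measured regulators of respiratory and mitochondrial genes, every array detected 12, no array detected 3 and the other 8 varied. Esrra, the oestrogen-related receptor alpha, was at 1.25, 1.46, 1.28 and 1.25 (SD 0.10), and Nrf1, the factor whose motif is described above, was dim at -4.77, -4.49, -3.71 and -4.06 (SD 0.47). Tfam, which packs mitochondrial DNA and takes part in its transcription, was at -2.90, -2.47, -2.27 and -2.07 (SD 0.35). Both Nrf1 and Tfam were lowest on replicate 1, as were only 3 of the 12 regulators detected on all arrays. Replicate 1 was the highest array for 5 of the 12. On this scale the median deviation of the 12 there was 0.16, against -0.13 for the subunits. Over all genes it was 0.10 in the dimmest bin of signal, 0.16 in bin 3 and -0.11 in the brightest. The part of signal strength in this difference was not tested either. Ppargc1a, the coactivator known from heart, muscle and brown fat, was detected on no array, its relative Ppargc1b on 1 array, and Pprc1 on all 4. Gabpa and Yy1 were each detected on 1 array and Gabpb1 on 3. As with the subunits above, a low value is that of a probe and may not be that of the gene. Ucp2, a carrier of the inner membrane found in macrophages, was at 0.22, -0.047, -0.50 and -0.16 (SD 0.30).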

How the data were processed

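The deposited files hold spot intensity from 1-colour Agilent arrays, read by Agilent Feature Extraction 11.0.1.1 per the submitters' processing notes. Background and spatial trend had been removed from the processed intensity by that software, and arrays had not been scaled to each other, per the file headers. No gene spot was saturated. Control spots were dropped, as were spots marked as outliers (486 to 723 of 58717 gene spots), which still counted for detection.

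A probe's value is the mean log2 of the deposited intensity over its spots. The 75th percentile was taken over probes detected on all 4 arrays, since only 22.9% were. Detection of a probe needed over 50% of its spots called well above background. Accessions were matched without version to RefSeq's table for GRCr8, which named 21109 of 45598 probes. On arrays, depth is signal over background, and precision is limited by there being 4 arrays.

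Detection, levels and SDs carry no test. Probes with 2 or more spots (1594) were compared between arrays by limma 3.58.1 (R 4.3.3), using its moderated F with Benjamini-Hochberg adjustment, after the script was tested on simulated data. Promoter counts and plots used Python 3.11.15 with pandas 2.3.3. Every subunit could be named. Defining subunits, isoform groups, genes not detected on all arrays and those of highest and lowest SD are given in full by rule, and further subunits were added after their values were seen. Genes and lists were chosen with earlier results of these data known. Alternatives changed the detection rule, scaling, background correction, probe summary, fold minimum or dim-probe filter, or dropped 1 replicate. Normexp (offset 50) used the median spot signal, the raw signal column of the files used here. A planned comparison of protein sequences was not run. The values of 1 subunit are not reported here; it stays in the counts and medians.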

Additional observations from a re-analysis of the deposited data

Results flagged for a closer look

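For 7 of 75 subunits (9.33%), against 6.03% of all genes, 1 array lay so far from the other 3 that its gap exceeded the 95% critical value of Dixon's ratio (gap over range), which chance passes in about 1 of 20 groups. Replicate 1 was the low array for 5 of them: Ndufb9 (ratio 0.918), Ndufab1 (0.90), Cox8b (0.866), Uqcrb (0.858) and Atp5mc1 (0.839). Their levels on replicate 1 were 2.91, -0.16, -6.23, -0.62 and 4.68. Atp5f1c was low on replicate 4 (ratio 0.90, level 0.65) and Cox6a2 high on replicate 2 (ratio 0.891, level 0.62). The median deviation of all 75 subunits was low on replicate 1 as well (ratio 0.849, deviation -0.13). On the same scale that of all genes was high there (ratio 0.884), and it stayed highest there after quantile normalization (0.031). For all genes replicate 1 was instead the lowest array with the 75th percentile over all probes (-0.044), the median of detected probes (-0.022) and normexp correction (-0.081). The ratio for subunits was 0.71 with the 75th percentile over all probes and 0.659 after normexp correction, both under the critical value, and after quantile normalization replicate 2 was the lowest array. It was over that value, with replicate 1 low, with the median of detected probes (0.879) and the mean over the gene's probes (0.916). Without the filter on dim probes it was too (0.912).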

How the results depend on the processing

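The count of 75 subunits detected on all arrays was 75 or 76 under every other detection rule and with any replicate left out, and the median SD ran from 0.13 to 0.22 over all alternatives, against 0.18 to 0.46 for all genes. The number at least 2-fold apart was 6, and it was 11 of 81 without the filter on dim probes (52.8% of all genes then), 7 or 9 under other scalings or normexp correction (9.33% or 12.0%, against 4.84% to 8.83% of all genes), 22 with a minimum of 1.5-fold (38.8% of all genes) and 1 to 5 with a replicate left out. The median deviation of subunits on replicate 1 was -0.23 with the 75th percentile over all probes and 0.011 after quantile normalization, and on replicate 2 it was 0.11 with the former, where all genes lay at -0.044 and 0.075. Subunits lowest on replicate 1 numbered 26 after quantile normalization and 41 to 58 under the other settings, a count added after seeing the data. The limma call held for 1 of 2 probes after normexp correction, for 0 with a 2-fold minimum and for 1 to 2 with a replicate left out. The SD of a single subunit at least doubled in 1 to 3 of 75 subunits under each other scaling, correction or probe summary. It at least halved in 13 after quantile normalization, 4 after normexp correction, 0 or 1 under the other such settings and 16 without replicate 1. No paired analysis was possible because there is 1 group. Signal limits the 6 genes not detected on all arrays and Cox8b.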
